A study of Drosophila melanogaster with 14 samples.

Results

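The Dpr and DIP genes of Drosophila melanogaster were followed in indirect flight muscle (IFM) of pupae and in larval wing discs of Tet mutants and controls. Members were taken by name, as every gene of the IFM table whose symbol is dpr followed by a number or starts with DIP. This gave 21 dpr and 11 DIP genes, 32 of the 17890 genes of the IFM table, and all 32 were found by gene identifier among the 17490 genes of the wing disc table. RNA was measured in 14 libraries. The 8 IFM libraries came from fibres dissected at 96 h after puparium formation (APF), 2 each from homozygous *Tet* null, catalytic dead Tet (*Tet* CD), *Tet-GFP* and wild-type w1118 pupae. The 6 wing disc libraries came from wandering larvae of the third instar, 3 each from *Tet* null and wild type. *Tet* null animals lack Tet in all their cells, *Tet* CD is a GFP-tagged Tet whose enzyme is inactive, and *Tet-GFP* is the knock-in with GFP fused to the active protein that serves as its control. Homozygous *Tet* null animals die as pupae. Dissected IFM can carry motor nerve endings, glia and tracheae, and each value is a level over all cells of the sample.

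Dprs (defective proboscis extension response proteins) and DIPs (Dpr-interacting proteins) are small cell surface proteins of the immunoglobulin superfamily in insects. Each Dpr binds 1 or a few DIPs across the gap between 2 cells, and the pairs help neurons to find, and to keep, their synaptic partners. In larvae and adults they act in subsets of motor neurons, interneurons and photoreceptors, and *dpr10* is also made by muscles, where it is met by motor neurons that carry *DIP-alpha*. In the fly most members are known as neuronal genes that differ from cell to cell, rather than as muscle genes.

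Values are RPKM, the reads on a gene divided by its length and by the depth of the library, so that levels can be compared between genes of different length. All 32 genes were low. The highest value of any member in any IFM library was 4.29 RPKM, whereas 10 flight muscle markers together held 35353 to 45625 RPKM in the same libraries. In wing discs 9 of these markers were found and held 136 to 208 RPKM, of which salm alone held 72.2 to 113 RPKM. The estimated reads behind a member ranged from 3 to 564 in IFM and from 0 to 587 in wing discs, with medians of 11.5 to 134 per IFM library. No member was at 0 in any IFM library, and 0 to 5 members were at 0 in a wing disc library. The targeted gene, Tet, had 0.219 to 0.405 RPKM in *Tet* null IFM and 2.04 to 3.01 RPKM in wild-type IFM, and it had 0.352 to 0.475 RPKM in *Tet* null discs and 148 to 205 RPKM in wild-type discs. Tet was at 3.77 and 4.19 RPKM in *Tet* CD and at 3.66 and 3.96 RPKM in *Tet-GFP* IFM.

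Some libraries stood apart. Wild-type disc library 2 had a median of 2.13 RPKM over 120 odorant and gustatory receptor genes, which discs are not known to use, whereas the other 5 disc libraries had medians of 0.0271 to 0.135 RPKM and the 8 IFM libraries of 0 to 0.0872 RPKM. All 32 members had values of 1.86 to 4.36 RPKM in that library, and disc results are given with and without it. Among IFM libraries the highest receptor median, 0.0872 RPKM, was that of *Tet* null library 2. In it 1833 genes of the table were at 0, against 3285 to 4801 in the other IFM libraries. The 2 *Tet-GFP* libraries, which the table numbers 1 and 3, differed in the members more than the libraries of the other IFM groups. Library 3 exceeded library 1 for 31 of 32 members, with a median ratio of 4.43. The ratio of library 1 to 2 had a median of 1.08 in *Tet* null and 1.16 in wild type, and that of library 1 to 3 a median of 1.35 in *Tet* CD. The tissue given for *Tet* null IFM sample 1 is wing disc, against its title, its age and its place in the table, and its flight muscle markers summed to 45625 RPKM.

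In wild-type IFM, *dpr7* was the most abundant member, at 4.24 and 2.81 RPKM, and it alone made up 30.7 and 28.4% of the summed RPKM of all 32 genes. It was followed by *DIP-iota* (1.19 ± 1.09 RPKM, mean ± SD, n = 2), *DIP-epsilon* (0.615 ± 0.0654 RPKM), *dpr12* (0.612 ± 0.0259 RPKM) and *dpr18* (0.542 ± 0.000996 RPKM). *DIP-iota* overlapped with each of the next 3 in this order, since its 2 libraries lay at 1.97 and 0.422 RPKM. *DIP-zeta* (0.0652 ± 0.0189 RPKM) and *DIP-eta* (0.0670 ± 0.0550 RPKM) were the lowest. In *Tet* null IFM the order changed below the first place: *dpr7* (3.60 ± 0.75 RPKM), *dpr21* (3.35 ± 0.88 RPKM), *dpr12* (2.49 ± 0.11 RPKM), *dpr9* (2.14 ± 0.51 RPKM) and *dpr11* (1.47 ± 0.23 RPKM) were the highest. The ranges of *dpr7* and *dpr21* overlapped, and so did those of *dpr12* and *dpr9*. *dpr7* held 11.7 and 9.78% of the members' sum in *Tet* null libraries, and it was the first in each of the 8 IFM libraries.

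**Figure D1:**
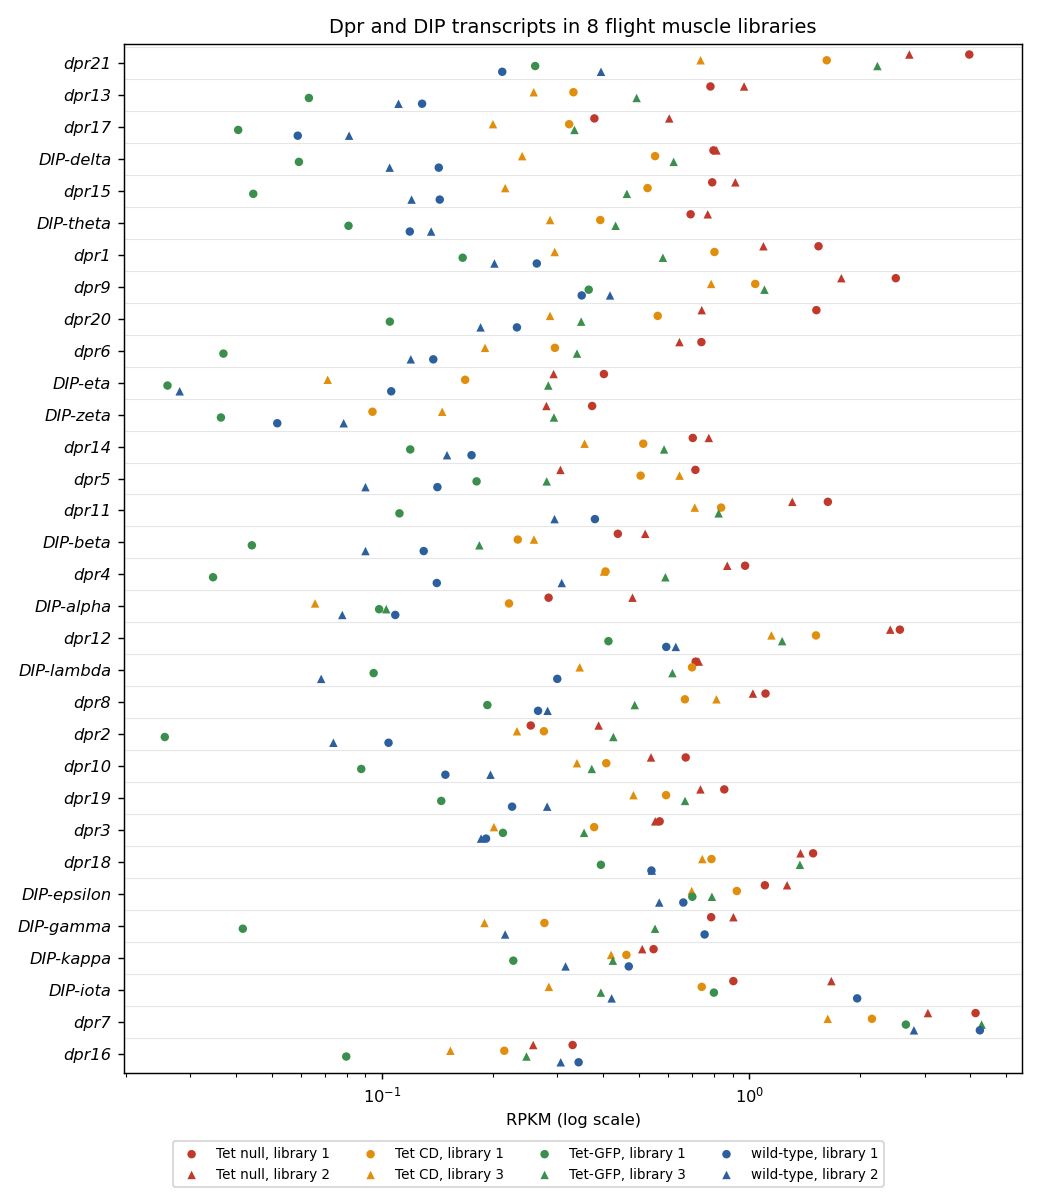
RPKM (log axis) of each of the 32 genes in the 8 IFM libraries, ordered by the ratio of the *Tet* null to the wild-type mean, highest at the top; colours give the genotype and symbols the library. *Tet* null libraries lie to the right of both wild-type libraries for 29 of 32 genes, and *dpr16*, *dpr7* and *DIP-iota* are the exceptions.

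Loss of Tet was compared first with wild-type IFM. Members were higher in *Tet* null muscle nearly throughout the family: for 29 of 32 each *Tet* null library lay above each wild-type library, and for 0 each lay below. Over all genes of the table, 22.6% were higher in every *Tet* null library and 19.7% were lower. The ratio of the mean RPKM in *Tet* null to that in wild type had a median of 4.23 over the 32 members and was above 2 for 26 of them and above 4 for 19. On the scale of log2(RPKM + 0.5), which understates the change of genes this low, the median difference was 0.82 for the members, against 0.00 for all genes. The 21 dpr genes had a median of 0.92 and the 11 DIP genes a median of 0.58 on this scale. In a test over all genes with a mean of at least 0.5 RPKM in the 4 libraries, 14 members could be tested with limma, a linear model fitted to all genes, and a gene was called at a Benjamini-Hochberg adjusted P under 0.05 and a fold over 1.5. In *Tet* null IFM 5 members rose, *dpr1*, *dpr9*, *dpr11*, *dpr12* and *dpr21*, beside 5.5% of the 8466 genes tested, and 11 were higher at an unadjusted P under 0.05, beside 15.6%. Of the members tested, 5 averaged at least 0.5 RPKM in wild type too (*dpr7*, *dpr12*, *dpr18*, *DIP-epsilon* and *DIP-iota*), and the others passed the limit through *Tet* null, so that the share called among those tested is given as a description. Of the 5 called, only *dpr12* reached 0.5 RPKM in wild type. None of the members was called lower by limma, beside 2.79% of the genes tested, and 0 were lower at an unadjusted P under 0.05, beside 11.2%. The other 18 members stayed below the limit and have values but no test. In the dm6 assembly *dpr1* spans 20698483 to 20750442 of 2R, *dpr9* spans 15054930 to 15077206 of 3R, *dpr11* spans 6529169 to 6593330 of 3R, *dpr12* spans 5804712 to 5860831 of 2R and *dpr21* spans 3066499 to 3191011 of 2R.

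*dpr21* showed the largest ratio. It was at 3.97 and 2.73 RPKM in *Tet* null, 1.62 and 0.736 RPKM in *Tet* CD, 0.261 and 2.23 RPKM in *Tet-GFP* and 0.212 and 0.394 RPKM in wild-type IFM. Both *Tet* null libraries thus stood above all 6 others, and the *Tet-GFP* libraries spanned nearly the whole range between wild type and *Tet* null. The *Tet* null mean was 11.04-fold that of wild type, and the difference of 2.25 (SE 0.26) on the log2 scale passed the test (adjusted P = 0.028 from limma). At a wild-type mean of 0.303 RPKM, *dpr21* met the limit of 0.5 RPKM only through *Tet* null. In wild type its values rested on an estimated 8 and 14 reads. *dpr21* is one of the Dprs that bind *DIP-beta*.

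*dpr12*, the ligand of *DIP-delta*, had the smallest SE of the members tested. It was at 2.57 and 2.42 RPKM in *Tet* null, 1.52 and 1.15 RPKM in *Tet* CD, 0.413 and 1.23 RPKM in *Tet-GFP* and 0.594 and 0.630 RPKM in wild-type IFM. Both *Tet* null libraries stood above the other 6, and *Tet-GFP* library 1 was the lowest. The log2 difference between *Tet* null and wild type was 1.43 (SE 0.17, adjusted P = 0.028), resting on an estimated 564 and 559 reads in *Tet* null and 106 reads in each wild-type library. *DIP-delta* itself was at 0.799 and 0.814 RPKM in *Tet* null, 0.554 and 0.241 RPKM in *Tet* CD, 0.0593 and 0.622 RPKM in *Tet-GFP* and 0.143 and 0.105 RPKM in wild-type IFM. Its groups did not overlap either and the ratio of means was 6.52, but it lay below the limit of the test. *DIP-delta* averaged 0.806 RPKM beside 2.49 RPKM of *dpr12* in *Tet* null, and 0.124 RPKM beside 0.612 RPKM of *dpr12* in wild type.

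Among the other Dprs that bind *DIP-beta*, *dpr9* was at 2.50 and 1.78 RPKM in *Tet* null, 1.04 and 0.787 RPKM in *Tet* CD, 0.365 and 1.10 RPKM in *Tet-GFP* and 0.350 and 0.417 RPKM in wild-type IFM. The difference between *Tet* null and wild type, 1.57 (SE 0.22) on the log2 scale, passed the test (adjusted P = 0.034). *dpr9* averaged 0.383 RPKM in wild type and was tested only because of its *Tet* null level. *dpr8* was at 1.11 and 1.02 RPKM in *Tet* null, 0.668 and 0.814 RPKM in *Tet* CD, 0.193 and 0.487 RPKM in *Tet-GFP* and 0.266 and 0.282 RPKM in wild-type IFM. Its log2 difference of 1.02 (SE 0.20) missed the limit (adjusted P = 0.054) and passed it without a trend of the spread (adjusted P = 0.049). *DIP-beta* was at 0.438 and 0.520 RPKM in *Tet* null, 0.234 and 0.259 RPKM in *Tet* CD, 0.0442 and 0.184 RPKM in *Tet-GFP* and 0.130 and 0.0901 RPKM in wild-type IFM. *DIP-beta* and these 3 Dprs all had *Tet* null values above every other IFM library, and *DIP-beta* was lower than each of the 3 in all 8 libraries.

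*DIP-gamma* and the Dprs set beside it had ratios of *Tet* null to wild type between 0.906 and 7.02. *dpr11* was at 1.64 and 1.31 RPKM in *Tet* null, 0.838 and 0.710 RPKM in *Tet* CD, 0.111 and 0.825 RPKM in *Tet-GFP* and 0.380 and 0.295 RPKM in wild-type IFM, and the difference of *Tet* null from wild type passed the test (log2 1.23, SE 0.21, adjusted P = 0.044). With a wild-type mean of 0.337 RPKM, *dpr11* too was tested only because of its *Tet* null level. *dpr15*, at 0.792 and 0.916 RPKM in *Tet* null and 0.144 and 0.120 RPKM in wild type, and *dpr17*, at 0.378 and 0.605 RPKM in *Tet* null and 0.0589 and 0.0813 RPKM in wild type, had ratios of 6.48 and 7.02 but lay below the limit of the test. In the other lines *dpr15* was at 0.528 and 0.216 RPKM in *Tet* CD and 0.0446 and 0.464 RPKM in *Tet-GFP*, and *dpr17* at 0.323 and 0.200 RPKM in *Tet* CD and 0.0405 and 0.334 RPKM in *Tet-GFP*. *dpr16* was the exception among them. It was at 0.330 and 0.258 RPKM in *Tet* null, 0.215 and 0.153 RPKM in *Tet* CD, 0.0798 and 0.247 RPKM in *Tet-GFP* and 0.343 and 0.306 RPKM in wild-type IFM, and its *Tet* null and wild-type ranges overlapped. An exon of *dpr16* shares bases with cno, a cell junction gene on the other strand, at 1.38 and 1.60 RPKM in *Tet* null and 1.52 and 1.43 RPKM in wild type. The strand setting is not stated, so how reads on the shared bases were counted is not known. *DIP-gamma* was at 0.787 and 0.905 RPKM in *Tet* null, 0.277 and 0.190 RPKM in *Tet* CD, 0.0417 and 0.553 RPKM in *Tet-GFP* and 0.755 and 0.216 RPKM in wild-type IFM. Wild-type library 1 nearly reached the *Tet* null level, and the difference of 0.50 (SE 0.33) on the log2 scale was not called (adjusted P = 0.40). CG11828, which shares exon bases with *DIP-gamma* on the other strand, was at 3.57 RPKM in that wild-type library and at 0.272 to 1.15 RPKM in the other 7.

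The *DIP-alpha* group was low throughout IFM. *DIP-alpha* was at 0.284 and 0.480 RPKM in *Tet* null, 0.222 and 0.0657 RPKM in *Tet* CD, 0.0981 and 0.103 RPKM in *Tet-GFP* and 0.109 and 0.0779 RPKM in wild-type IFM. *dpr6* was at 0.740 and 0.645 RPKM in *Tet* null, 0.295 and 0.191 RPKM in *Tet* CD, 0.0370 and 0.339 RPKM in *Tet-GFP* and 0.138 and 0.120 RPKM in wild type. *dpr10*, the Dpr known from muscles, was at 0.671 and 0.540 RPKM in *Tet* null, 0.408 and 0.339 RPKM in *Tet* CD, 0.0877 and 0.372 RPKM in *Tet-GFP* and 0.149 and 0.197 RPKM in wild type. All 3 had both *Tet* null libraries above the other 6, with ratios to wild type of 4.10 for *DIP-alpha*, 5.38 for *dpr6* and 3.50 for *dpr10*, and none reached the limit of the test.

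**Figure D2:**
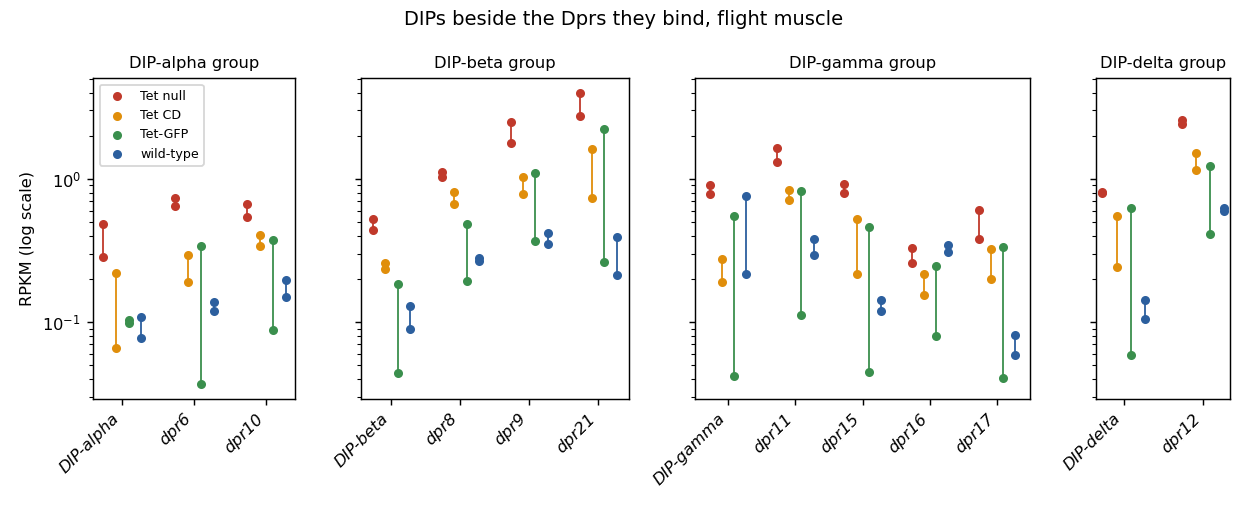
RPKM (log axis) in the 8 IFM libraries of 4 DIPs, each beside chosen Dprs that it is known to bind. Points are libraries and lines join the 2 libraries of a genotype. *Tet* null libraries are the highest for all these genes except *dpr16*, and the line is longest in *Tet-GFP* for most of them.

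*dpr1*, the founding member of the family, needed for the rejection of salt in feeding, was at 1.54 and 1.09 RPKM in *Tet* null, 0.804 and 0.295 RPKM in *Tet* CD, 0.166 and 0.581 RPKM in *Tet-GFP* and 0.264 and 0.202 RPKM in wild-type IFM. It rose by 1.30 (SE 0.23, adjusted P = 0.046) on the log2 scale in *Tet* null, the call closest to the limit. Its wild-type mean of 0.233 RPKM lay under 0.5 RPKM, so it entered the test only through *Tet* null. *dpr18* was at 1.49 and 1.38 RPKM in *Tet* null, 0.789 and 0.745 RPKM in *Tet* CD, 0.394 and 1.37 RPKM in *Tet-GFP* and 0.541 and 0.543 RPKM in wild type. Its groups did not overlap, and the difference of 0.89 (SE 0.18) missed the limit (adjusted P = 0.058). *dpr19* was at 0.854 and 0.736 RPKM in *Tet* null, 0.593 and 0.483 RPKM in *Tet* CD, 0.145 and 0.668 RPKM in *Tet-GFP* and 0.226 and 0.281 RPKM in wild type, a difference of 0.78 (SE 0.22, adjusted P = 0.10).

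The most abundant member, *dpr7*, was also the clearest exception. It was at 4.13 and 3.06 RPKM in *Tet* null, 2.16 and 1.63 RPKM in *Tet* CD, 2.67 and 4.29 RPKM in *Tet-GFP* and 4.24 and 2.81 RPKM in wild-type IFM. The difference between *Tet* null and wild type was 0.04 (SE 0.28, adjusted P = 0.95) and turned to a negative value without *Tet* null library 1 or without wild-type library 2. *dpr7* is the only member on chromosome 4 (247124 to 253329, minus strand, dm6). *DIP-iota* varied as much within genotypes as between them, at 0.904 and 1.67 RPKM in *Tet* null, 0.742 and 0.284 RPKM in *Tet* CD, 0.801 and 0.394 RPKM in *Tet-GFP* and 1.97 and 0.422 RPKM in wild type. It was also the one member that was lower in *Tet-GFP* library 3 than in library 1.

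The remaining 13 members (*dpr2*, *dpr3*, *dpr4*, *dpr5*, *dpr13*, *dpr14*, *dpr20*, *DIP-epsilon*, *DIP-eta*, *DIP-kappa*, *DIP-lambda*, *DIP-theta* and *DIP-zeta*) averaged 0.321 to 1.18 RPKM in *Tet* null and 0.0652 to 0.615 RPKM in wild-type IFM. Their ratios lay between 1.35 for *DIP-kappa* and 7.32 for *dpr13*, and for all 13 the lower *Tet* null library lay above the higher wild-type library. *dpr4*, *dpr20* and *DIP-epsilon* were tested and not called, with adjusted P of 0.081, 0.098 and 0.14. *DIP-epsilon*, which followed *dpr7* and *DIP-iota* in wild type, had a ratio of 1.93. *dpr4*, *DIP-alpha*, *DIP-theta* and *DIP-zeta* share exon bases with a lncRNA, an antisense RNA or a coding gene, of which CG2875 (0.226 to 0.406 RPKM, same strand as *DIP-alpha*) was the highest in IFM.

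Several members are neighbours in the dm6 assembly, where 5 pairs lie within 250 kb of each other. *dpr6* (3L, 9974651 to 10139360) and *dpr10* (10147454 to 10186108) lie 8.09 kb apart and had ratios of *Tet* null to wild type of 5.38 and 3.50. *DIP-eta* (2L, 5601723 to 5617946) and *DIP-theta* (5626291 to 5658560), 8.34 kb apart, had ratios of 5.19 and 5.74. *dpr5* (3R, 11499984 to 11505951) and *dpr4* (11533483 to 11542949), 27.5 kb apart, had 4.40 and 4.11, and *dpr17* (12094876 to 12111420) and *dpr15* (12138833 to 12158595) on the same arm, 27.4 kb apart, had 7.02 and 6.48. *DIP-epsilon* (2L, 6377771 to 6411326) and *DIP-iota* (6617134 to 6621700), 206 kb apart, had 1.93 and 1.08. These values are a description of 5 pairs, with no test.

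**Figure D3:**
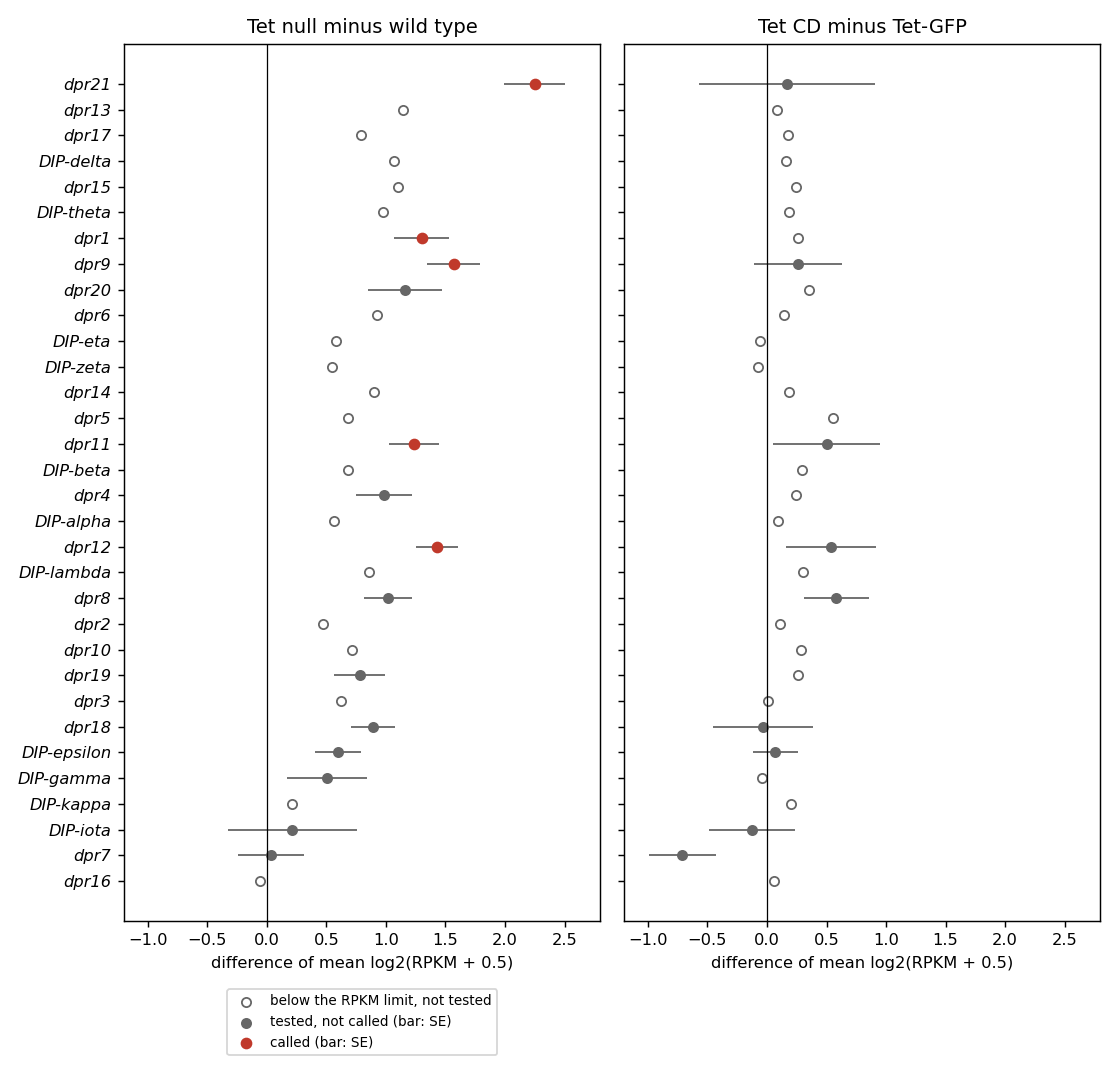
Difference of mean log2(RPKM + 0.5) between *Tet* null and wild-type IFM (left) and between *Tet* CD and *Tet-GFP* IFM (right) for each of the 32 genes, in the order of the plot of values by library; bars are standard errors from limma, open circles were below the limit of the test. On the left 5 genes were called, at 1.23 to 2.25, and on the right 0 were called, with values of -0.71 to 0.58.

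The calls against wild type rest on 2 libraries a group and are fragile. With all genes of the table tested, 0 members and 0 genes of the table were called higher. When any 1 of the 4 libraries was left out, 0 members were called, and 0 to 12 genes of the whole table were called higher. With the replicate number as a block 3 members were called (*dpr9*, *dpr12* and *dpr21*), with all 4 IFM groups in one fit 2 (*dpr9* and *dpr12*), and with a limit of 1 RPKM 3. The median log2 difference of the 32 members stayed positive in all alternatives, at 0.53 to 1.55.

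Markers of nerve tissue moved in the same libraries. Of 15 neuron markers, all were tested and 13 rose in *Tet* null against wild-type IFM, with a median log2 difference of 2.07, among them nSyb and Syt1, which act in the release of synaptic vesicles. nSyb was at 15.9 and 13.0 RPKM in *Tet* null, 5.41 and 3.52 RPKM in *Tet* CD, 1.30 and 6.64 RPKM in *Tet-GFP* and 1.79 and 1.61 RPKM in wild type, and both *Tet* null libraries stood above the other 6. elav, which marks nuclei of nearly all neurons, was at 1.32 and 2.09 RPKM in *Tet* null and 1.40 and 1.45 RPKM in wild type, and it was not called. None of the 15 was at 0 in any IFM library. The markers summed to 121 and 103 RPKM in *Tet* null, 55.1 and 32.3 RPKM in *Tet* CD, 15.6 and 50.8 RPKM in *Tet-GFP* and 18.6 and 18.3 RPKM in wild-type IFM. The 32 members summed to 35.3 and 31.3 RPKM in *Tet* null, 19.5 and 13.8 RPKM in *Tet* CD, 7.96 and 22.3 RPKM in *Tet-GFP* and 13.8 and 9.89 RPKM in wild type. The neuron sum was 6.08-fold as high in *Tet* null as in wild type and the sum of the members 2.81-fold, or 3.57-fold without *dpr7*. Per 100 RPKM of neuron markers the members without *dpr7* stood at 25.7 and 27.4 RPKM in *Tet* null, 31.6 and 37.7 RPKM in *Tet* CD, 33.9 and 35.5 RPKM in *Tet-GFP* and 51.6 and 38.7 RPKM in wild-type IFM, so that this ratio was lower in *Tet* null than in all 6 other libraries. The ratio depends on the markers summed, since elav, in the same list, did not separate *Tet* null from wild type. In bulk samples, more cells of a type and more RNA per cell cannot be told apart. The part of the neuron markers in the members' values was not tested.

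**Figure D4:**
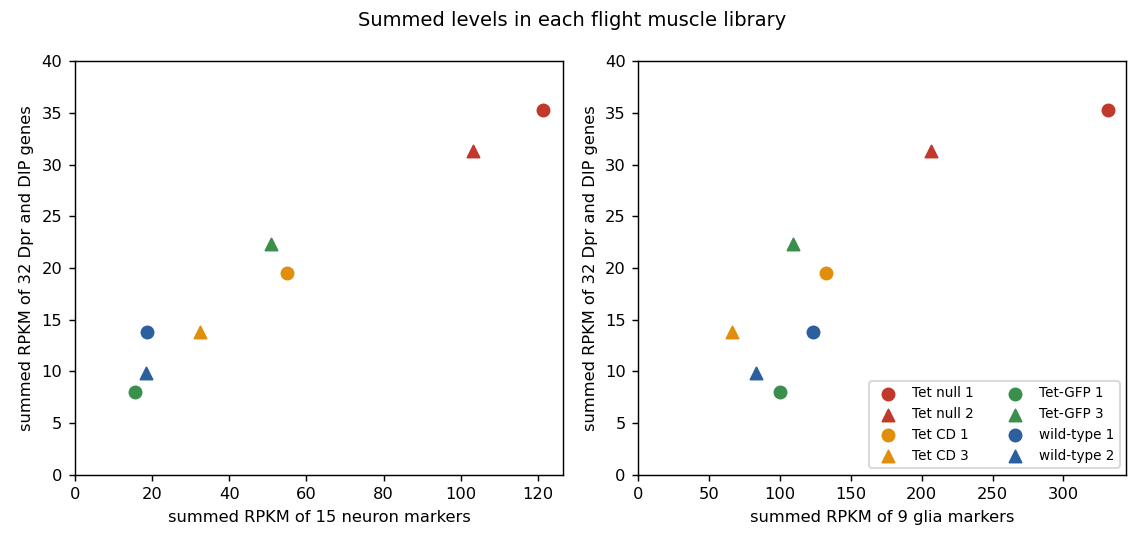
Summed RPKM of the 32 Dpr and DIP genes in each of the 8 IFM libraries against the summed RPKM of 15 neuron markers (left) and of 9 glia markers (right). The 2 *Tet* null libraries are highest on all 3 sums, and *Tet-GFP* library 1 lies with wild type on the left while library 3 lies with *Tet* CD.

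Markers of other cell types that the dissection could hold were read in the same way. Of 9 glia markers 8 were tested and 3 rose in *Tet* null against wild type (alrm, Gat and nrv2, median 1.07), while 1 was lower at an unadjusted P under 0.05 (Gli, at 2.53 and 1.75 RPKM in *Tet* null and 4.15 and 3.73 RPKM in wild type). The sum of the 9 was 331 and 207 RPKM in *Tet* null, 132 and 65.8 RPKM in *Tet* CD, 100.3 and 109 RPKM in *Tet-GFP* and 123 and 83.2 RPKM in wild type. None of the 10 flight muscle markers was called by limma or had an unadjusted P under 0.05 (0 of 10), with a median of -0.01 (sums of 45625 and 35353 RPKM in *Tet* null and 36672 and 41529 RPKM in wild type). None of the tested markers of trachea (5 of 5, median -0.91), fat body (6 of 6, median -0.98), hemocytes (5 of 6, median 0.20), disc epithelium (7 of 8, median -0.17) or adult muscle progenitors (5 of 8, median -0.30) was called by limma in this comparison. At an unadjusted P under 0.05, 4 trachea markers and 1 muscle progenitor marker were lower in *Tet* null, and 0 of the other 3 lists.

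Other cell surface families used for partner choice were set beside the members. The genes of Beat and Side proteins, another set of immunoglobulin superfamily ligands and receptors of motor axons, were higher in both *Tet* null than in both wild-type libraries for 20 of 22 and lower for 1, with a median log2 difference of 1.03 over all 22. Of the 12 tested 4 rose (beat-IIa, beat-Va, side-II and side-VI) and 0 fell, but only 2 of the 12 averaged 0.5 RPKM in wild type, and the 4 called passed the limit through *Tet* null. Their sum was 24.2 and 19.6 RPKM in *Tet* null, 11.2 and 10.5 RPKM in *Tet* CD, 5.66 and 14.4 RPKM in *Tet-GFP* and 5.63 and 7.71 RPKM in wild type. Of 5 immunoglobulin-domain relatives and partners of the DIPs, 3 were tested, with a median of -0.22, of which 1 rose and 1 was lower at an unadjusted P under 0.05 (Lac, at 5.68 and 5.35 RPKM in *Tet* null and 9.56 and 10.4 RPKM in wild type). The one that rose was klg, a homophilic adhesion protein of neurons, at 2.07 and 2.03 RPKM in *Tet* null and 0.280 and 0.331 RPKM in wild type, where it was below the limit. cDIP, a secreted protein that binds several Dprs and DIPs, was at 0.589 and 1.16 RPKM in *Tet* null and 1.18 and 0.965 RPKM in wild type, without a gap between the groups. Of 10 other adhesion genes of motor axons and their targets, 8 were tested and 2 rose (Ten-a and Toll-6), with a median of 0.45. Toll-6, at 0.211 and 0.0917 RPKM in wild type and 1.10 and 0.985 RPKM in *Tet* null, passed the limit through *Tet* null.

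*Tet* null IFM was compared with the second control line too. Against *Tet-GFP*, 29 of 32 members were again higher in both *Tet* null libraries, beside 26.2% of all genes of the table, and 0 were lower, beside 19.6%. The exceptions were *dpr7*, *dpr2* and *DIP-zeta*. Of the 19 members tested 0 were called by limma in either direction, and 1 gene of the 8369 tested was called at all, 0.0119% of them. At an unadjusted P under 0.05, 0 members were lower and 5 were higher (*dpr1*, *dpr8*, *dpr9*, *dpr12* and *dpr20*), beside 12.5% of the genes tested that were lower and 14.1% that were higher, and their adjusted P ran from 0.15 to 0.16. Of these 5, *dpr1*, *dpr8* and *dpr20* averaged under 0.5 RPKM in *Tet-GFP* and passed the limit through *Tet* null, so that this count too is a description. The ratio of mean RPKM had a median of 2.63, and the median log2 difference was 0.65, which became 1.02 without *Tet-GFP* library 3 and 0.37 without library 1. Both *Tet* null libraries stood above all 6 other IFM libraries for 26 members, beside 14.3% of all genes, and below them for 0, beside 9.03%. These comparisons share the *Tet* null libraries with those against wild type and are not independent of them. Of the 15 neuron markers 0 were called by limma against *Tet-GFP* and 12 were higher at an unadjusted P under 0.05, with a median of 1.75.

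Loss of the enzymatic activity, with the protein in place, was addressed by *Tet* CD against *Tet-GFP*. Of 9 members tested, 0 were called by limma in either direction, as for all 8141 genes tested (0%), and 0 members had an unadjusted P under 0.05, beside 3.37% of the genes that were higher and 2.7% that were lower at this P. The groups did not overlap for *dpr5*, *dpr8* and *DIP-beta*, which were higher in both *Tet* CD libraries (13.4% of all genes of the table were), and for *dpr7*, which was lower in both (13.3%). *dpr7* had the largest difference, -0.71 (SE 0.28, adjusted P = 0.86), at a mean of 1.90 ± 0.37 RPKM in *Tet* CD and 3.48 ± 1.15 RPKM in *Tet-GFP* (SD, n = 2 each). *dpr8* had the largest positive difference among those tested, 0.58 (SE 0.27, adjusted P = 0.91). The median log2 difference of all members was 0.18, and it was -0.15 without *Tet-GFP* library 1 and 0.52 without library 3. Of the 15 neuron markers 0 were called and 0 had an unadjusted P under 0.05, with a median of 0.45. The SE of the members tested ran from 0.19 to 0.74, so that these values do not show that *Tet* CD and *Tet-GFP* muscle were alike.

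The effects of losing Tet and of losing its activity were then compared directly. In one fit of the 8 IFM libraries, 10 members were tested for a difference between the *Tet* null effect (against wild type) and the *Tet* CD effect (against *Tet-GFP*), and 0 were called by limma, beside 0.228% of 8344 genes called higher and 0.455% called lower. The estimates were positive for each of these genes and ran from 0.34 for *DIP-iota* to 2.08 (SE 0.86) for *dpr21*. Of these, *dpr1* and *dpr8* passed the limit of 0.5 RPKM through *Tet* null, which favours a positive value, so that the signs are given as a description. *dpr9* alone had an unadjusted P under 0.05 (8.6% of genes were higher and 10.1% lower at this P), at 1.31 (SE 0.45, adjusted P = 0.21 from limma). The *dpr21* difference had an adjusted P of 0.27.

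The 2 control lines were also compared with each other. They differ in the GFP knock-in at Tet, and a difference of strain background cannot be told apart from it. *Tet-GFP* against wild-type IFM gave 0 calls by limma among 7 members tested and among all 8156 genes (0%), with 359 genes higher and 484 lower (4.4 and 5.93%) at an unadjusted P under 0.05 and 0 members among them. Groups did not overlap for *dpr3*, *dpr5* and *DIP-epsilon*, higher in *Tet-GFP* (12.9% of all genes were), and for *dpr16*, lower in *Tet-GFP* (18.6%). The median log2 difference was 0.18, and it was -0.16 without *Tet-GFP* library 3 and 0.52 without library 1. *dpr21* had a ratio of means of 4.11, with *Tet-GFP* library 1 between the 2 wild-type libraries and library 3 above both.

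Wing discs, a larval epithelium with few neurons, had another order of members. In wild-type libraries 1 and 3 *DIP-alpha* was the highest, at 2.43 and 2.15 RPKM, followed by *dpr19* (1.35 ± 0.16 RPKM, n = 2), *dpr16* (1.218 ± 0.0101 RPKM), *DIP-iota* (0.702 ± 0.0973 RPKM) and *dpr18* (0.631 ± 0.0832 RPKM). *dpr7*, the first in IFM, was at 0.123 and 0.234 RPKM there, and *dpr21* at 0.0468 and 0.223 RPKM. In these 2 libraries 6 to 9 members reached 0.5 RPKM. IFM and disc tables were scaled separately and their levels are given side by side without a test. *DIP-alpha* shares exon bases with CG2875 on the same strand, at 14.5 and 16.2 RPKM in those wild-type discs, and *dpr16* with cno, at 52.7 and 44.1 RPKM. How reads on the shared bases were counted is not known, and their effect on these values was not tested.

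**Figure D5:**
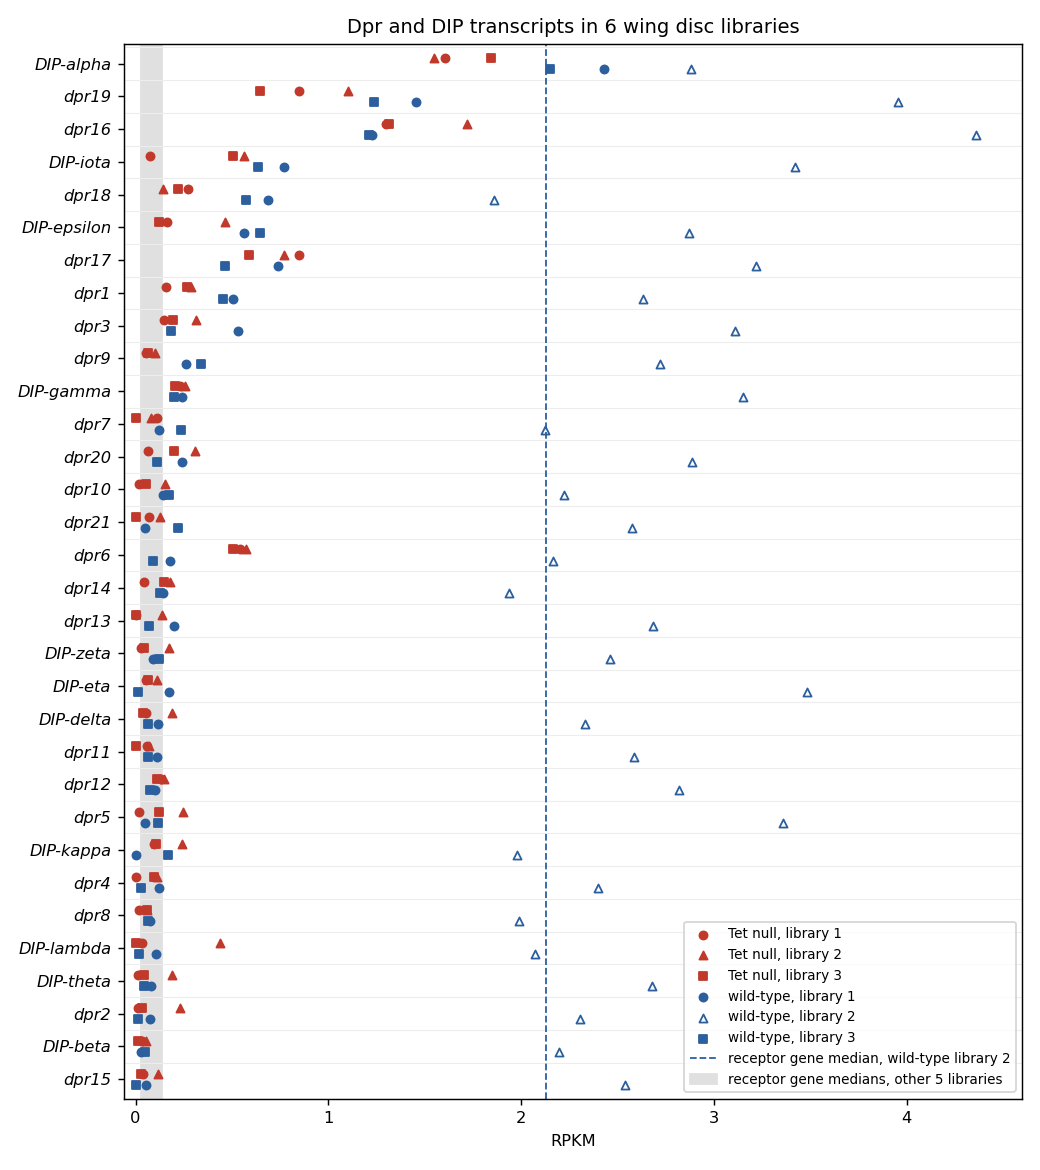
RPKM (linear axis) of each of the 32 genes in the 6 wing disc libraries, ordered by the mean of wild-type libraries 1 and 3; the dashed line is the median of 120 odorant and gustatory receptor genes in wild-type library 2 (2.13 RPKM) and the grey band the range of that median in the other 5 libraries. The open triangles of wild-type library 2 lie near or above its own line for all genes.

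Loss of Tet in discs gave no call for the family. Of 19 members tested 0 were called by limma in either direction, beside 1.67% of 12631 genes called higher and 2.48% called lower, and 1 member, *dpr19*, was lower at an unadjusted P under 0.05 (8.37% of genes tested were) and 0 were higher (9.35%). Most of the 19 passed the limit of 0.5 RPKM through wild-type library 2, and 5 remained when it was left out. The median log2 difference of all members was -0.80, against -0.26 for all genes of the table, and without wild-type library 2 it was -0.03. After subtraction of each library's receptor gene median it was -0.30. In every *Tet* null library 9 members were lower than in every wild-type library, beside 10.7% of all genes, and 0 were higher, beside 9.42%. Without wild-type library 2 these 9 were lower by definition, and no other member joined them (14.5% of genes were lower). Another 3 were then higher (14.3% of genes). Lower in discs in this way and higher in both *Tet* null IFM libraries were 7 members, beside 2.67% of the 17252 genes of both tables, or 3.62% without wild-type disc library 2.

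*DIP-alpha* was at 1.60, 1.55 and 1.85 RPKM in *Tet* null discs and 2.43, 2.88 and 2.15 RPKM in wild type. Its groups did not overlap, and the difference was -0.46 (SE 0.28, adjusted P = 0.41 from limma) with library 2 and -0.36 (adjusted P = 0.31) without it. CG2875, which shares exon bases with it, was at 22.2, 19.7 and 21.04 RPKM in *Tet* null discs and 14.5, 11.2 and 16.2 RPKM in wild type, the opposite direction. *dpr19* was at 0.846, 1.10 and 0.644 RPKM in *Tet* null and 1.46, 3.96 and 1.24 RPKM in wild type, at -0.87 (SE 0.41, adjusted P = 0.27) with and -0.45 (adjusted P = 0.35) without library 2. *DIP-iota* was at 0.0767, 0.564 and 0.507 RPKM in *Tet* null and 0.771, 3.42 and 0.634 RPKM in wild type, with a difference of -1.06 (SE 0.61, adjusted P = 0.38) that was -0.50 (adjusted P = 0.47) without library 2. All 3 were lower in each *Tet* null library than in any wild-type library.

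*dpr16* and *dpr17* changed sign with that library. *dpr16* was at 1.30, 1.72 and 1.31 RPKM in *Tet* null discs and 1.23, 4.36 and 1.21 RPKM in wild type, a difference of -0.33 (SE 0.38) that was 0.17 without library 2. *dpr17* was at 0.849, 0.771 and 0.587 RPKM in *Tet* null and 0.738, 3.22 and 0.465 RPKM in wild type, at -0.42 (SE 0.53) with and 0.17 without library 2. *dpr6* was at 0.543, 0.573 and 0.507 RPKM in *Tet* null and 0.177, 2.16 and 0.0911 RPKM in wild type. Its 3 *Tet* null values were close to each other and 4.04-fold the mean of wild-type libraries 1 and 3, but it had too low a mean to be tested without library 2, and it is one of the 3 members, with *dpr12* and *dpr16*, that were higher in *Tet* null once library 2 was set aside.

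The other members were low in discs. *dpr9* was at 0.0562, 0.103 and 0.0663 RPKM in *Tet* null and 0.260, 2.72 and 0.339 RPKM in wild type, and *dpr18* at 0.271, 0.142 and 0.219 RPKM in *Tet* null and 0.690, 1.86 and 0.572 RPKM in wild type, both without overlap. These rested on an estimated 8 to 12 reads for *dpr9* in *Tet* null libraries and 27 and 37 reads in wild-type libraries 1 and 3. *dpr1* was at 0.160, 0.289 and 0.267 RPKM in *Tet* null and 0.504, 2.63 and 0.455 RPKM in wild type, and *dpr7* at 0.112, 0.0823 and 0 RPKM in *Tet* null and 0.123, 2.12 and 0.234 RPKM in wild type. *dpr8*, *dpr10*, *dpr11*, *dpr12*, *dpr15*, *dpr21*, *DIP-beta* and *DIP-delta* averaged 0.0331 to 0.130 RPKM in *Tet* null and 0.0267 to 0.16 RPKM in wild-type libraries 1 and 3, and *DIP-gamma* stood at 0.229, 0.254 and 0.206 RPKM in *Tet* null and 0.240, 3.15 and 0.200 RPKM in wild type. The other 13 members averaged 0.0464 to 0.248 RPKM in *Tet* null and 0.0455 to 0.604 RPKM in wild-type libraries 1 and 3, with *DIP-epsilon* the highest in both.

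Cell type markers moved in discs as well. Of 8 adult muscle progenitor markers 3 fell in *Tet* null discs (E(spl)m6-BFM, Him and twi), and their sum was 64.5, 58.7 and 54.1 RPKM in *Tet* null and 124, 93.5 and 112 RPKM in wild type, without overlap. All 6 fat body markers rose in *Tet* null discs, with sums of 240, 199 and 285 RPKM in *Tet* null and 106, 85.5 and 39.4 RPKM in wild type, and 3 of 6 hemocyte markers rose (He, Hml and Pxn), with sums of 34.7, 51.0 and 25.7 RPKM in *Tet* null and 17.6, 24.9 and 9.65 RPKM in wild type. Of the 14 neuron markers found among disc genes, 10 were tested and 0 were called by limma (2 were lower at an unadjusted P under 0.05), and elav was at 14.5, 14.8 and 14.9 RPKM in *Tet* null and 18.6, 12.6 and 15.3 RPKM in wild type. Their part in the values of *DIP-alpha*, *dpr19* and the other members was not tested. Of the 22 Beat and Side genes 14 were tested in discs and 2 fell (beat-IIIc and side-IV).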

How the data were processed

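RNA of 8 IFM and 6 wing disc samples, described as biological replicates, had been sequenced by the authors from Ovation SoLo libraries. Per the labels and the paper's methods, the authors trimmed the reads (Cutadapt in the methods, Trimmomatic 0.32 in the submitters' processing notes, which also name Cufflinks 2.2.1 and DESeq2 1.22.2), aligned them to dm6 with HISAT2 2.1.0, counted them per gene with HTSeq 0.11.2 and deposited RPKM in 1 table per tissue, with decimal commas. No counts were used here, so no count model was fitted. The unit of the deposited tables was recorded as other because of the commas, and the values were treated as RPKM. All 14 library columns were used and 0 columns were left over. Labels number the *Tet* CD and *Tet-GFP* samples 1 and 2 and the columns 1 and 3, so that these columns were placed by genotype only.

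Members and gene lists were chosen with earlier results of these data known. Groups were compared on log2(RPKM + 0.5) by a linear model with moderated variances that follow a mean trend (limma 3.58.1, R 4.3.3), fitted to all genes that averaged 0.5 RPKM or more in the libraries entered. A call needed a Benjamini-Hochberg adjusted P under 0.05, taken over every gene tested, and a fold over 1.5, and the difference of effects at the adjusted P alone. The smallest step of low values gave a library's scale (an RPKM of 0.0204 to 0.0465 for 1 read on a 1-kb gene) and, with exon lengths of BDGP 6.54 (Ensembl release 115, dm6 coordinates), the estimated reads behind a value. On this scale IFM libraries held 35.7 to 49.1 M reads and wing disc libraries 21.5 to 31.2 M. The paper names an earlier Ensembl release, so these exon lengths may differ from those behind the RPKM. RPKM times these lengths summed to 0.745 to 1.12 of the expected total of a library, and the read numbers are approximate. The strand setting of the counting is not given in the sources used here. Symbols of the wing disc table were harmonised by identifier. Values in each library were given for 19 members, namely those called in any comparison, the 5 highest in each table and those of known pairs, and ranges for the other 13. Values of nSyb, elav, Gli, Lac, klg, cDIP and of genes that share exon bases with members were chosen after they were seen. DIP and Dpr pairs are background knowledge. Python 3.11.15 with pandas 2.3.3, numpy 2.4.6 and matplotlib 3.10.9 made tables and plots. The procedure was also run on simulated data, where only genes above the level of most members were changed. That run does not show how the test behaves at levels as low as theirs. P-values measure the spread between the samples labelled as replicates.

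Replicate numbers come from the sample titles, and for *Tet* CD and *Tet-GFP* IFM from the column names. In wing discs the deviations of same-numbered *Tet* null and wild-type samples correlated at 0.18, 0.30 and 0.15 across 12631 genes. *Tet* null sample 1 correlated as well with wild-type sample 3 (0.19), so these values do not settle whether the numbers pair the samples. The tests given are unpaired, and the numbers entered only as a block in an alternative. Alternatives were other constants, other limits, median-ratio scaling, no trend, the replicate block, all 4 IFM groups in 1 fit and each replicate left out; the subtraction of the receptor gene level, the disc comparison without wild-type library 2 for groups that do not overlap and the comparison of *Tet* null with all 6 other IFM libraries were chosen after seeing the data. Sequences of the members were not used here.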

Additional observations from a re-analysis of the deposited data

Results flagged for a closer look

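In 7 members every *Tet* null library was above every wild-type library in IFM and every *Tet* null library was below every wild-type library in wing discs, beside 2.67% of the 17252 genes of both tables. The difference between the tissues was not tested, since the tables were scaled separately. For *dpr1* the log2 difference of *Tet* null from wild type was 1.30 in IFM and -0.97 in discs, for *dpr8* 1.02 and -0.77, for *dpr9* 1.57 and -1.14, and for *dpr18* 0.89 and -1.03. For *dpr19* it was 0.78 in IFM and -0.87 in discs, for *DIP-alpha* 0.56 and -0.46, and for *DIP-epsilon* 0.60 and -1.12. Without wild-type disc library 2 the disc values were -0.41 for *dpr1*, -0.06 for *dpr8*, -0.47 for *dpr9* and -0.67 for *dpr18*. They were -0.45 for *dpr19*, -0.36 for *DIP-alpha* and -0.59 for *DIP-epsilon*. Genes chosen as lower than every wild-type library stay lower when library 2 is removed, so these signs were fixed in advance. Of the 7, only *dpr1* and *dpr9* were called in IFM, and 0 were called in discs by limma, where *dpr19* alone had an unadjusted P under 0.05.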

How the results depend on the processing

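Alternatives mattered most where 2 libraries stood against 2. Of the 5 members called higher in *Tet* null against wild-type IFM, 0 were called without a filter, 3 with a limit of 1 RPKM (5 members tested), 2 with all 4 IFM groups in one fit, 4 after subtraction of the receptor gene level (*dpr1* lost, adjusted P = 0.053 from limma) and 0 to 0 without 1 replicate. The cause was not tested. With the replicate block 3 were called, *dpr1* and *dpr11* being lost at an adjusted P of 0.063 and 0.061 from limma, although the numbers pair these 2 and 2 libraries only weakly (correlation 0.086, against 0.47 for the numbered columns of *Tet* CD and *Tet-GFP*). The block changed no other call, in wing discs included. *Tet-GFP* was not blocked against *Tet* null or wild type, whose columns share only number 1 with it.

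The median log2 difference of all 32 members for *Tet* null against wild-type IFM was 1.55 with a constant of 0.1, 0.53 with a constant of 1, 0.81 after subtraction of the receptor gene level and 0.83 to 0.90 without 1 replicate. Against *Tet-GFP* it was 1.24 with a constant of 0.1 and 0.37 to 1.02 without 1 replicate. For *Tet* CD against *Tet-GFP* it was -0.15 to 0.52 and for *Tet-GFP* against wild type -0.16 to 0.52 without 1 replicate, reversed without *Tet-GFP* library 1 in the first and without library 3 in the second.

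Of 78 tests of single members, those that changed sign had not been called. Without 1 replicate, *Tet* null against wild-type IFM ran over -0.22 to 0.30 for *dpr7* (negative without *Tet* null 1 or wild type 2) and -0.50 to 0.92 for *DIP-iota* (negative without *Tet* null 2 or wild type 2), and *Tet* null against *Tet-GFP* over -0.24 to 0.36 for *dpr7* (negative without *Tet* null 1 or *Tet-GFP* 1). *Tet* CD against *Tet-GFP* ran over -0.19 to 0.70 for *dpr9*, -0.058 to 1.06 for *dpr11*, -0.56 to 0.50 for *dpr18*, -0.75 to 1.09 for *dpr21*, -0.056 to 0.20 for *DIP-epsilon* and -0.40 to 0.20 for *DIP-iota*. *Tet-GFP* against wild type ran over -0.32 to 0.27 for *dpr7*, -0.28 to 0.64 for *dpr12* and -1.19 to 0.23 for *DIP-iota*, and the difference of effects over -0.37 to 1.05 for *DIP-iota*. In discs the range was -0.37 to 0.050 for *dpr6*, -0.58 to 0.17 for *dpr16* and -0.80 to 0.17 for *dpr17*. The sign also changed for *dpr18* in *Tet* CD against *Tet-GFP* (0.022 with a constant of 0.1), *dpr7* in *Tet-GFP* against wild type (0.017 with median-ratio scaling) and *dpr6* in discs (-0.051 with a constant of 1). At 11.5 to 134 estimated reads for the median member of an IFM library, the lowest members rest on few reads.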
